A study of Mus musculus with 3 samples.

Results

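Gata4, Gata6, Sox17, Sox7, Pdgfra, Dab2 and Hnf4a were chosen by name as regulators and early markers of the primitive endoderm, and all 7 are among the 24421 genes that the authors counted. RNA-Seq was performed on female mouse ES cells of the undifferentiated EL 16.7 line (strain 129S1/CastEiJx 129S1, F2) that carried a control (scramble) shRNA or either of 2 shRNAs against NUP153, a nucleoporin of the nuclear basket. The libraries are named control, KD-1 (shRNA-1) and KD-2 (shRNA-2), with 1 library per condition. All cells had been infected with lentivirus, selected with 2 μg/ml puromycin for 2 days, and grown in medium with 20% FBS and LIF on γ-irradiated mouse embryonic fibroblasts from Tg(DR4)1Jae/J mice, so that each library can also hold RNA of the feeder fibroblasts. The comparisons address whether the genes differ between control and NUP153 deficient cells, and whether both shRNAs give the same value.

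The primitive endoderm is the extraembryonic epithelium that separates from the epiblast in the blastocyst, and mouse ES cells correspond to the epiblast. FGF4 secreted by epiblast precursors acts through FGF receptors, GRB2 and ERK to promote the expression of GATA6, while NANOG represses it. GATA6 acts first, and GATA4, SOX17, SOX7, the receptor PDGFRα, the endocytic adaptor DAB2 and, later in the visceral endoderm, HNF4α follow. In undifferentiated ES cell culture these genes mark cells that leave the pluripotent state towards endoderm, but several of them are also used elsewhere: Pdgfra in fibroblasts and other mesenchyme, Gata4 and Gata6 in heart and mesenchyme, and Sox17 and Sox7 in endothelium.

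The control library held 72344726 reads on genes, the KD-1 library 85258834 and the KD-2 library 69839336. The reads were scaled by the upper quartile of each library, and ratios between libraries were taken from the scaled reads with a pseudocount of 0.5 reads. A gene was taken as higher or lower when its ratio passed 1.5-fold and the exact 95% interval of the ratio excluded 1. This interval covers the counting of reads only, since without replicates the spread between cultures is unknown, and the comparisons are between libraries, not conditions. Nup153, the targeted gene, had 27870 control reads against 16451 in KD-1 and 11126 in KD-2. After scaling, KD-1 retained 0.504 of the control level, and KD-2 retained 0.371. All 6 ES cell markers were abundant in every library, for example Zfp42 at 54998 to 99896 reads and Nanog at 39339 to 61737 reads, and their summed scaled reads were 225647 in the control library against 240064 and 174433 in the knockdowns.

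For 3 of the 7 genes the RefSeq table used here (GRCm38.p6) holds promoter sequence. Shown are the 250 bases before the first RefSeq start of Hnf4a, Dab2 and Pdgfra, the genes among these 3 with values past 1.5-fold in at least 1 knockdown library. Capitals mark the GATA factor letters AGATAA or TGATAA, searched on both strands.
Hnf4a, chr2:163506607-163506856, plus strand: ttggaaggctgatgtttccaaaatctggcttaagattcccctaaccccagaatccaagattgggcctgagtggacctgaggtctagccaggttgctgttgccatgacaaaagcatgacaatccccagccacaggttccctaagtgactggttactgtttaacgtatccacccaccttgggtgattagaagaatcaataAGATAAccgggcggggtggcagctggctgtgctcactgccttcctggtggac
Dab2, chr15:6299539-6299788, plus strand: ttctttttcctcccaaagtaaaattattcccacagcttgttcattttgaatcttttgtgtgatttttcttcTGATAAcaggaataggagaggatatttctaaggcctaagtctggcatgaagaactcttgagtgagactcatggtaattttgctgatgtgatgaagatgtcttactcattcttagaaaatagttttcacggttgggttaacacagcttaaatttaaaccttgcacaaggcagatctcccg
Pdgfra, chr5:75152001-75152250, plus strand: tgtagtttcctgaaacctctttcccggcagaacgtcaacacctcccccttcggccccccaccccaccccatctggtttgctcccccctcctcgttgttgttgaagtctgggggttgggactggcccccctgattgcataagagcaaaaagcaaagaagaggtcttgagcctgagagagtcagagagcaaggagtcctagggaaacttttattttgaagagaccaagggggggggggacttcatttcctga
Hnf4a and Dab2 hold 1 match each in these windows and Pdgfra none. The second RefSeq starts of Hnf4a and Dab2, whose windows begin at 163546905 and 6386498, hold none either. Of all 32851 promoters of the same length in the table, 16.6% hold at least 1 match. The SOX letters ACAAAG or ACAATG, searched on both strands, are in 25.2% of them and in none of the 5 windows of these genes.

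Per length of the exons, the transcription factors were the lowest of the 7 genes in every library and Pdgfra stood well above them. The level of Pdgfra was 8.86 RPKM in control, above 81.1% of the 23334 genes with a known exon length, and Dab2 followed at 0.680 RPKM. Sox7 was at 0.406 RPKM, Hnf4a at 0.132, Gata6 at 0.0977, Gata4 at 0.0779 and Sox17 at 0.0434 RPKM, while the median of all genes was 0.513 RPKM. Thus 5 of the 7 genes lay below the median gene of the control library, and all 5 are transcription factors. The order in KD-1 was Pdgfra at 7.32 RPKM, Dab2 at 0.802, Sox7 at 0.526, Hnf4a at 0.245, Gata6 at 0.114, Sox17 at 0.0762 and Gata4 at 0.0601. In KD-2 Pdgfra was at 15.8 RPKM, Dab2 at 1.18, Sox7 at 0.395, Gata6 at 0.231, Hnf4a at 0.211, Gata4 at 0.0734 and Sox17 at 0.0600. Pdgfra, Dab2 and Sox7 held the first 3 places in all 3 libraries, and the 4 other factors changed places among themselves.

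The mean over the libraries reached 10 reads for all 7 genes and 100 reads for only Pdgfra, Dab2 and Sox7. In KD-1, 1 of the 7 genes, Hnf4a, was higher than control and none was lower, beside 6.48% of 16670 genes that were higher and 4.58% that were lower by the same rule. In KD-2, 3 genes, Gata6, Pdgfra and Dab2, were higher and none was lower, beside 14.9% of genes that were higher and 8.60% that were lower. No member was higher in both knockdowns, beside 2.03% of the 16670 genes that were. Between the knockdowns, 0 genes were higher in KD-1 than in KD-2 and 2, Gata6 and Pdgfra, were lower, beside 12.0% of genes that were higher and 15.0% that were lower. The median log2 ratio of the 7 genes was 0.25 in KD-1, where the median of all genes was 0.02, and 0.51 in KD-2, where it was -0.02. With 7 genes these counts and medians describe the list and show nothing particular to it. Both comparisons use the same control library.

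**Figure D1:**
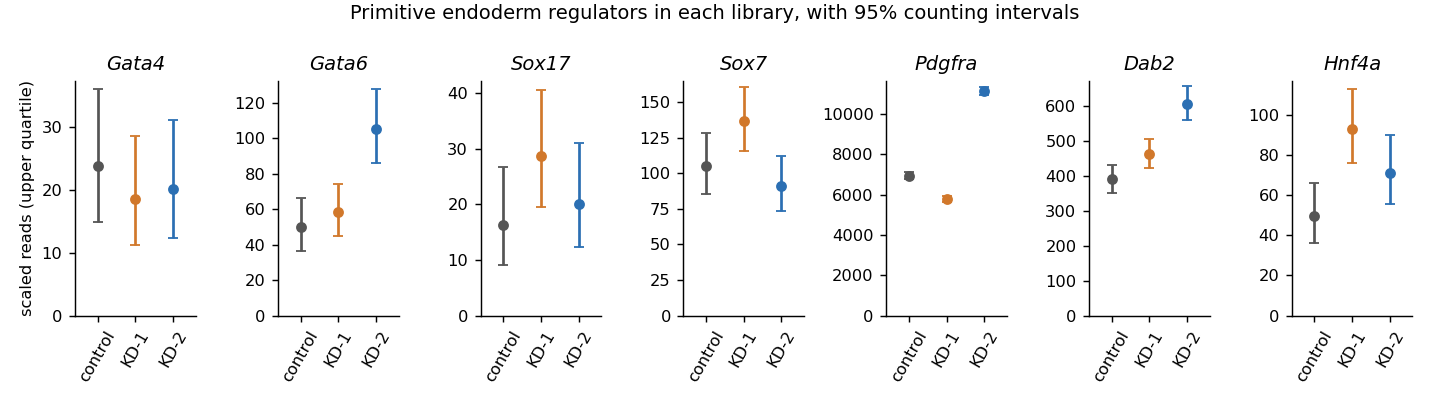
Reads of each gene (y axis, reads scaled by the upper quartile, starting at 0) in the control, KD-1 and KD-2 libraries (x axis), 1 point per library, with exact 95% Poisson intervals that cover the counting of reads only. Pdgfra is lowest in KD-1 and highest in KD-2, Gata6 stands out in KD-2, Hnf4a is lowest in control, and the 3 intervals of Gata4 overlap.

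Among the GATA factors, Gata6, which acts at the head of the program, was higher in KD-2 only. Gata6 (chromosome 18 from 11052064 to 11085635, plus strand, GRCm38) was counted 46 times in the control library, 63 times in KD-1 and 105 times in KD-2. The KD-2 library stood above the other two, which overlapped within their counting intervals. The log2 ratio was 1.08 in KD-2 (interval 0.57 to 1.62) and 0.22 in KD-1 (interval -0.35 to 0.81). Compared directly, KD-1 was lower than KD-2 by a log2 ratio of -0.85 (interval -1.33 to -0.39). Exons of Gata6 overlap 93 bases of the counted gene 1010001N08Rik on the opposite strand, which had 14 to 23 reads, and the strand that was counted is not given in the sources used here.

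Gata4, a related zinc finger factor that acts with GATA6 in endoderm and heart, had few reads, at like numbers in every library. Gata4 (chromosome 14 from 63198922 to 63271692, minus strand) was counted 22 times in the control library and 20 times in each of KD-1 and KD-2. The log2 ratio was -0.36 in KD-1 with an interval of -1.32 to 0.58, and -0.24 in KD-2 with an interval of -1.19 to 0.70. A difference was not detectable at this depth, and the intervals still allow the gene to be more than 2-fold lower in either knockdown.

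Sox17 and Sox7, factors of the SOX F group that bind DNA through an HMG box and act downstream of the GATA factors, had more reads in KD-1 than in the other libraries but did not pass the rule. Sox17 (chromosome 1 from 4490931 to 4497354, minus strand) was counted 15 times in the control library, 31 times in KD-1 and 20 times in KD-2. Its log2 ratio was 0.80 in KD-1, past 1.5-fold, but the interval of -0.11 to 1.81 included 0, and in KD-2 it was 0.30 (interval -0.73 to 1.38). Exons of Sox17 overlap 804 bases of Gm37587 on the opposite strand, which is not among the counted genes.

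Sox7 (chromosome 14 from 63943673 to 63950732, plus strand) lies 672 kb from Gata4 on the same chromosome. It was counted 97 times in the control library, 148 times in KD-1 and 91 times in KD-2, with the KD-1 library above the other two. The log2 ratio was 0.38 in KD-1, with an interval of 0.00 to 0.77 that barely excludes 0, and -0.20 in KD-2, with an interval of -0.63 to 0.23. Between the knockdowns Sox7 was 1.49 times as high in KD-1 as in KD-2 (log2 ratio 0.58, interval 0.19 to 0.97), just inside the 1.5-fold threshold.

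Pdgfra, which encodes the receptor for PDGF-AA and is needed for the survival of primitive endoderm cells, had by far the most reads and the narrowest intervals, and its values lay on opposite sides of control. Pdgfra (chromosome 5 from 75152292 to 75198215, plus strand) was counted 6423 times in the control library, 6255 times in KD-1 and 11095 times in KD-2. After scaling these were 6941, 5769 and 11132 reads, and the counting intervals of the 3 libraries did not overlap. The log2 ratio was 0.68 in KD-2 (interval 0.64 to 0.73) and -0.27 in KD-1 (interval -0.32 to -0.22), the latter within 1.5-fold. KD-1 was lower than KD-2 by a log2 ratio of -0.95 (interval -0.99 to -0.90). Its exons overlap 3 other annotated genes, of which only Mir7025, with 0 to 2 reads, was counted.

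Markers of the feeder fibroblasts differed between the libraries in the same directions as Pdgfra. Of the 15 fibroblast markers, KD-1 had 0 higher and 10 lower than control, beside 6.48% and 4.58% of all genes. KD-2 had 14 higher and 0 lower, beside 14.9% and 8.60%. These markers had median log2 ratios of -0.82 for KD-1 and 0.80 for KD-2. Their summed reads after scaling came to 108884 for the control library, 52088 for KD-1 and 212352 for KD-2, and none of them was at 0 in any library. Pdgfrb, the relative of Pdgfra that marks fibroblasts and other mesenchyme, is on this list, with 2558 control reads against 1688 in KD-1 and 5829 in KD-2. Col3a1, the marker with the most reads, was at log2 ratios of -1.33 and 0.96, and Twist2, at 112 reads in control, was at -0.12 and 1.30. For every 1000 reads on the fibroblast markers the control library held 63.7 reads of Pdgfra, KD-1 held 111 and KD-2 held 52.4. Per the same 1000 reads, Gata6 had 0.457, 1.12 and 0.496 reads and Dab2 had 3.58, 8.89 and 2.85 reads in the same order of libraries. All 7 members were highest relative to the fibroblast markers in KD-1, where the sum of these markers was lowest. Per 1000 reads on the ES cell markers instead, Pdgfra, Gata6 and Dab2 were highest in KD-2. In control, KD-1 and KD-2, Pdgfra was at 30.8, 24.0 and 63.8 reads, Gata6 at 0.220, 0.242 and 0.604 and Dab2 at 1.73, 1.93 and 3.47. By the same measure Gata4 and Hnf4a were also highest in KD-2, at 0.115 and 0.408 reads. Sox17 and Sox7 were highest in KD-1, at 0.119 and 0.569 reads. The part of the fibroblasts in the values of Pdgfra, Gata6 and Dab2 was not tested, and fewer cells of a type and less RNA per cell cannot be told apart in bulk libraries.

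**Figure D2:**
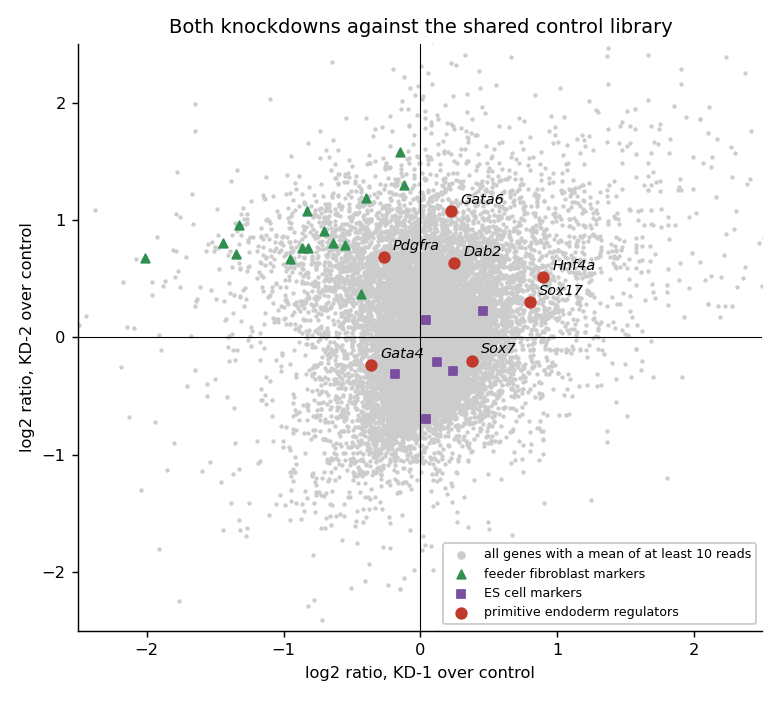
Log2 ratio of scaled reads in KD-1 over control (x axis) and in KD-2 over control (y axis) for each gene with a mean of at least 10 reads (grey), the 7 primitive endoderm regulators (red circles), the 15 feeder fibroblast markers (green triangles) and the 6 ES cell markers (purple squares), with 57 genes outside the plotted range. All fibroblast markers and Pdgfra lie to the left of 0 and above 0, while Gata6, Dab2, Hnf4a and Sox17 lie above 0 on both axes; both axes share the control library.

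Dab2, an adaptor that recruits receptors of the LDL receptor family into clathrin-coated pits and keeps the endoderm epithelium ordered, was higher in KD-2. Dab2 (chromosome 15 from 6299788 to 6440712, plus strand) was counted 361 times in the control library, 502 times in KD-1 and 604 times in KD-2. KD-2 was the highest library and control the lowest. The log2 ratio was 0.63 in KD-2 (interval 0.45 to 0.83), a ratio of 1.55 close to the threshold, and 0.25 in KD-1 (interval 0.05 to 0.45), within 1.5-fold. KD-1 and KD-2 differed by a log2 ratio of -0.39 (interval -0.56 to -0.22), also within 1.5-fold. Exons of Dab2 overlap 211 bases of Gm18888, a processed pseudogene on the opposite strand that is not among the counted genes. Lrp2, the gene of megalin, a cargo receptor that DAB2 binds, was higher in KD-1 instead, at a log2 ratio of 1.11 (interval 1.00 to 1.23), and at 0.24 in KD-2. Cubn, the partner receptor cubilin, was within 1.5-fold in both.

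Hnf4a, a nuclear receptor that drives the visceral endoderm and later liver programs, was the only member that was higher in KD-1. Hnf4a (chromosome 2 from 163506808 to 163572910, plus strand) was counted 46 times in the control library, 101 times in KD-1 and 71 times in KD-2. Control was the lowest library, and the knockdown libraries overlapped within their intervals. The log2 ratio was 0.90 in KD-1 (interval 0.39 to 1.44) and 0.51 in KD-2, where the interval of -0.04 to 1.09 included 0. Between the knockdowns it was 0.38 (interval -0.07 to 0.85). The reads are summed over both promoters of the gene, and its antisense neighbor Hnf4aos, whose exons do not overlap those of Hnf4a, had 2 to 4 reads. The 5 hepatocyte markers Alb, Ttr, Apoa1, Cyp7a1 and Serpina1a together had 22 to 29 reads in a library.

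**Figure D3:**
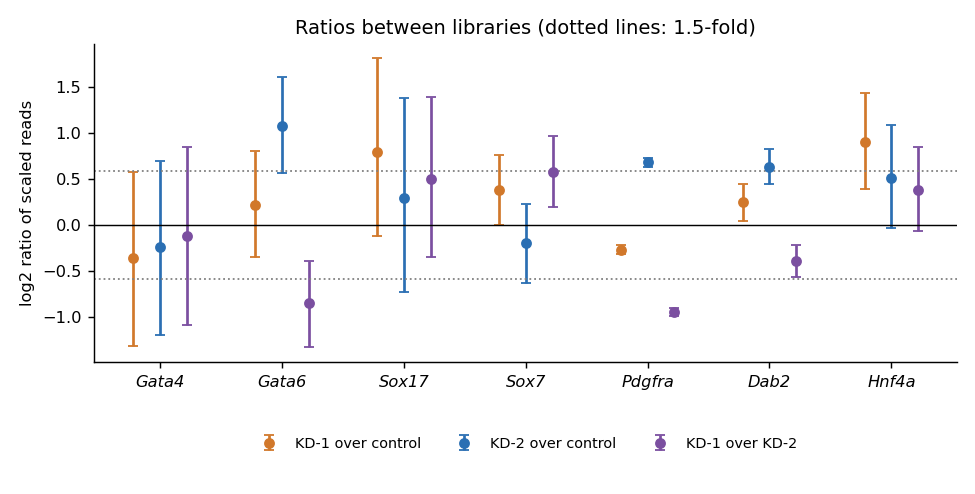
Log2 ratio of scaled reads (y axis) for each gene (x axis) in KD-1 over control, KD-2 over control and KD-1 over KD-2, with exact 95% intervals for the counting of reads and dotted lines at 1.5-fold. Gata6, Pdgfra and Dab2 pass the upper line in KD-2 and Hnf4a and Sox17 in KD-1, where the interval of Sox17 includes 0, and the intervals are widest for Gata4 and Sox17.

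Across the members, 4 genes (Gata6, Sox17, Dab2 and Hnf4a) had ratios above 1 in both knockdowns and 1 gene (Gata4) had ratios below 1 in both. The share of all genes with such ratios was not counted, and both ratios share the control library, so these counts show nothing particular to the members. Pdgfra was below control in KD-1 and above it in KD-2, and Sox7 the other way around. The genes nearest to the members in their pair of log2 ratios, among 12742 others with a mean of at least 100 reads, were Runx2, Ifngr1 and Hes1 for Pdgfra, at distances of 0.0078 to 0.013 on the log2 scale. They were Hist1h4f, Fam212b and Filip1l for Dab2 and Rbpms2, Patl1 and Ap1g2 for Sox7, at distances of up to 0.015. The likeness rests on 2 ratios per gene and is a description of 3 libraries.

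The only test that the design allows sets KD-1 and KD-2 together against control. It was made with edgeR's quasi-likelihood test, where the spread comes from the knockdown libraries alone and leaves 1 residual degree of freedom. Of 21164 genes with a read, 4 (0.0189%) passed an adjusted p of 0.05 and 293 had an unadjusted p under 0.05. The 4 genes, Ipw, Lars2, Mir6236 and Taf7l, are named after their values were seen. Of the 7 primitive endoderm regulators, 0 passed and 0 had an unadjusted p under 0.05, with log2 fold changes between -0.29 for Gata4 and 0.73 for Gata6 and Hnf4a. The lowest unadjusted p in edgeR's quasi-likelihood test was 0.233, for Gata6 and Hnf4a alike, and the adjusted p was 1.00 for all 7. Under the same test Nup153 itself, at -1.19, had an unadjusted p of 0.00315 and an adjusted p of 1.00.

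The relatives and partners of the members each had a small number of calls against control. Of the 9 relatives, 8 had a mean of at least 10 reads, and 1 was higher and 1 was lower in each knockdown. This stands beside 6.48% of all genes higher and 4.58% lower in KD-1, and 14.9% and 8.60% in KD-2. Gata3 was counted 17, 41 and 33 times in control, KD-1 and KD-2, and was higher in KD-1 at a log2 ratio of 1.02 (interval 0.19 to 1.95). In KD-2 Gata3 was at 0.83, not called, and was called with each of the 4 other scalings, at 0.87 to 0.99. Gata1 was lower in KD-2, at -0.67 (interval -1.08 to -0.27), a call lost with library totals at -0.51. The other calls were those of Pdgfrb, lower in KD-1 at -0.83 and higher in KD-2 at 1.08. Of the 9 partners, 2 were higher and 0 lower in KD-1 (Lrp2 and Zfpm1), and 3 higher and 0 lower in KD-2. Zfpm1 (FOG1), a cofactor that binds GATA factors, passed in both knockdowns, counted 107, 189 and 263 times, with log2 ratios of 0.59 and 1.19. The KD-1 call of Zfpm1 is at the threshold and was lost with TMM, DESeq2's size factors, library totals and the pseudocount of 5 reads, at 0.52 to 0.58. Zfpm2 (FOG2), at 0.79, and the ligand gene Pdgfd, at 0.94, were higher in KD-2. In KD-1 Zfpm2 was at 0.31 and Pdgfd at -0.50, both within 1.5-fold, with Pdgfd on opposite sides of control in the knockdowns. Pdgfa, which encodes a ligand of PDGFRα, had 1079 to 1289 reads and log2 ratios of 0.03 and 0.10.

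Genes of the basement membrane that endoderm cells lay down had several calls in KD-2. Of 8 such genes, 5 were higher in KD-2 (Col4a1, Col4a2, Nid1, Sparc and Serpinh1) and none was lower, with a median log2 ratio of 0.66, beside 14.9% of all genes that were higher. The fibroblast markers were also higher there, 14 of 15, and their part in these values was not tested. In KD-1, Col4a1 was higher at 0.70 and Serpinh1 was lower at -0.87, with a median of 0.20. Serpinh1, a collagen chaperone, and Sparc are also abundant in fibroblasts. Lama1, whose laminin chain is typical of primitive endoderm and embryonal cells, was counted 7075, 8319 and 5600 times in control, KD-1 and KD-2, at log2 ratios of 0.01 and -0.44.

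Of 13 other endoderm factors and markers, 11 had a mean of at least 10 reads. In KD-1, 3 of them were higher and 1 lower, beside 6.48% and 4.58% of all genes. In KD-2, 4 were higher and none lower, beside 14.9% and 8.60%. With library totals 9 were higher in KD-2, but that scaling also raised the median log2 ratio of all genes there by 0.16. The share of all genes called with library totals was not counted. Eomes was the only one higher in both, counted 249, 463 and 406 times in control, KD-1 and KD-2. Hhex, at a log2 ratio of 0.83, and Aqp8 were also higher in KD-1, and Hhex was at -0.24 in KD-2. Amn, Pth1r and Plat were higher in KD-2, at 1.42, 1.26 and 0.79. Fst, which encodes the activin antagonist follistatin, was lower in KD-1 at -0.96 and at 0.52 in KD-2, on opposite sides of control like the fibroblast markers. Foxa2 had 4 to 11 reads in a library, too few for a ratio.

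The pathway upstream of the primitive endoderm factors stayed within 1.5-fold with the upper quartile over all genes with a read. Of 16 genes of the FGF and ERK pathway, neither knockdown had any past the rule (0 higher and 0 lower). Among all genes 6.48% were higher and 4.58% lower in KD-1, and 14.9% and 8.60% in KD-2. The 16 pathway genes had median log2 ratios of 0.12 for KD-1 and 0.08 for KD-2. With library totals, which raised the median of all genes in KD-2 by 0.16, 5 of the 16 pathway genes were higher in KD-2. In KD-2, 1 of them, Dusp6, was higher with TMM and with the upper quartile over genes whose mean reached 10 reads, at 0.59 and 0.61. Fgf4 itself was at 0.19 for KD-1 and -0.51 for KD-2, Grb2 at 0.21 and -0.23, and Dusp6, a target of ERK signaling, at 0.12 and 0.55. Of 10 epiblast and ES cell factors, 0 were higher or lower in KD-1, and 1, Zfp42, was lower in KD-2, beside 8.60% of all genes. Zfp42 was at a log2 ratio of -0.70 there, a call lost with library totals at -0.54. Nanog was at 0.24 and -0.29, and Pou5f1 at 0.12 and -0.21.

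**Figure D4:**
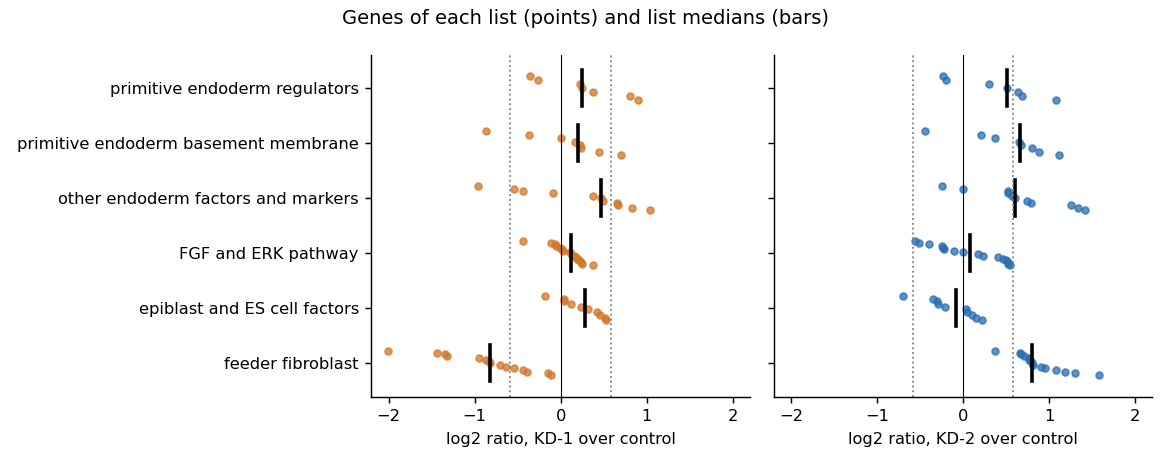
Log2 ratio over control (x axes, KD-1 in the left panel and KD-2 in the right panel) of each gene with a mean of at least 10 reads in 6 gene lists (rows), with black bars at the list medians and dotted lines at 1.5-fold. The feeder fibroblast list lies at a median of -0.82 for KD-1 and 0.80 for KD-2, and all genes of the FGF and ERK pathway lie between the dotted lines, which 5 of them pass in KD-2 with library totals.

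Markers of endothelium, of heart and of definitive endoderm, which also use some of these genes, were compared with control as small lists. Their calls stand beside 6.48% of all genes higher and 4.58% lower in KD-1, and 14.9% and 8.60% in KD-2. Of 9 endothelial markers, 5 had a mean of at least 10 reads, and Cdh5, which defines endothelium, had 3 to 5 reads. Kdr and Esam were higher in both knockdowns, and Erg was higher in KD-2 at 1.30. Pecam1 and Tek, with the most reads of the list at 2445 and 1788 in control, were within 1.5-fold, at 0.37 and -0.21 in KD-1 and at -0.47 and -0.53 in KD-2, and the summed scaled reads of the list were 5106, 5886 and 4191 in control, KD-1 and KD-2. Of 7 cardiac markers, 6 had a mean of at least 10 reads. Hand2 and Tbx5, which mesenchyme also uses, were higher in KD-2 at 1.37 and 0.77, while Myl7 was lower in both at -0.69 and -1.54, Tnnt2 was lower in KD-2 at -0.83, and Nkx2-5 had 0 to 6 reads. Of the 7 markers of definitive endoderm and mesendoderm, 6 had a mean of at least 10 reads, 1 of which was higher in KD-1 (Eomes) and 2 in KD-2 (Eomes and Gsc), or 4 in KD-2 under each of the other scalings. None of these lists was at 0 as a whole in any library, and their part in the values of the 7 genes was not tested. The lists overlap: Eomes, Cer1 and Foxa2 are on those of definitive endoderm and of other endoderm markers, Fgfr2 on the latter and on the FGF and ERK list, Pdgfrb on those of relatives and fibroblast markers, Sox18 on those of relatives and endothelial markers, and all 6 ES cell markers are also on the epiblast list.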

How the data were processed

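Expression was measured by RNA-Seq of ribosome-depleted total RNA in 3 libraries, 1 per condition. The authors trimmed the reads with Trim Galore 0.4.1, mapped them to mm10 (GRCm38) with TopHat2 2.1.1, and the counts they deposited are raw reads per gene, not normalized. The methods name featureCounts and the submitters' processing notes name HTSeq as the counting tool. Per the file headers there are no normalized values, and the 5 summary lines were left out, in which 21.5% to 24.1% of all reads lay outside of genes and 1.45% to 1.65% were ambiguous.

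Counts were scaled by the upper quartile. Ratios used a pseudocount of 0.5 reads and exact conditional binomial (Clopper-Pearson) 95% intervals, over the 16670 genes whose mean reached 10 reads, and were called past 1.5-fold with an interval that excluded 1. RPKM used the exon lengths of GENCODE M21 and library totals, with 23334 genes matched by symbol. For both knockdown libraries against control, edgeR 4.0.16 was used with TMM and Benjamini-Hochberg adjustment, and DESeq2 1.42.0 as an alternative, in R 4.3.3. Ratios and intervals were computed in Python 3.11.15 with numpy 2.4.6, scipy 1.17.1 and pandas 2.3.3, and plotted with matplotlib 3.10.9. The fold rule and edgeR's test were tried on simulated counts. The simulation of the fold rule held no spread between cultures and that of edgeR a preset one, so neither speaks for the spread between these cultures. The alternatives were TMM, DESeq2's size factors, library totals, the upper quartile over genes whose mean reached 10 reads, a pseudocount of 5 reads, a fold change of 2, other minimum means, and a call without the interval. The 7 genes and all gene lists were chosen with earlier results of these data known. The genes named are the 7 genes, Nup153, at most 6 genes of each list (the most abundant in control and those past 1.5-fold in both knockdowns first), and the 3 genes nearest in pattern to each member whose mean reached 100 reads. Any further gene was picked with its values in view.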

Additional observations from a re-analysis of the deposited data

Results flagged for a closer look

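Pdgfra lay on opposite sides of control in the knockdown libraries, at log2 ratios of -0.27 for KD-1 and 0.68 for KD-2. Both counting intervals excluded 0, and the ratio of KD-1 over KD-2 was -0.95. The difference between the knockdowns was not tested against a spread between cultures, since each had 1 library. The feeder fibroblast markers differed between the libraries in the same directions, and their part in this difference was not tested.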

How the results depend on the processing

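Library totals raised the median log2 ratio of all genes by 0.16 in KD-2 and lowered that of KD-1 over KD-2 by 0.17, and DESeq2's size factors lowered the latter by 0.10. Under the other scalings and the pseudocount of 5 reads, 98 of 105 recomputed log2 ratios of the 7 genes stayed within their counting interval and none of the called ones changed direction. The other 7 were those of Pdgfra: -0.33 in KD-1 with DESeq2's size factors, and in KD-2 0.84 with library totals and 0.74 with the upper quartile over genes whose mean reached 10 reads. For KD-1 over KD-2, Pdgfra was at -1.01 with TMM, -1.05 with DESeq2's size factors, -1.11 with library totals and -0.997 with the upper quartile over those genes. Hnf4a alone was called in KD-1, and Gata6, Pdgfra and Dab2 in KD-2, under every scaling and pseudocount, except that library totals added Hnf4a in KD-2 at 0.67. With a fold change of 2, 0 members were called in KD-1, 1 (Gata6) in KD-2 and 0 in KD-1 over KD-2. Without the counting interval, 2 members, Hnf4a and Sox17, were called in KD-1. The shares of all genes called with a fold change of 2, without the interval or with another scaling were not counted. For the feeder fibroblast markers, a fold change of 2 left 4 lower for KD-1 and 4 higher for KD-2, while library totals gave a median of 0.96 in KD-2. For the other lists, 535 recomputed counts and medians stayed and 89 moved, among them the counts that changed with Zfpm1, Gata1, Gata3, Zfp42 and Dusp6.

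In the comparison of both knockdown libraries with control, 4 genes were called, 2 with upper-quartile normalization, 2 with DESeq2's size factors, 2 with DESeq2's Wald test and 0 of 16670 genes with the minimum mean of 10 reads, where 190 had an unadjusted p under 0.05 in edgeR's quasi-likelihood test. The cause was not tested. No member passed under any of these. With TMM and one knockdown library left out, which leaves no test, Sox7 was at -0.16 without KD-1 and 0.36 without KD-2, and Pdgfra at 0.72 without KD-1 and -0.28 without KD-2, so both changed direction. No paired analysis was possible because each condition has 1 library. Depth limits Gata4 and Sox17 most, with 15 to 31 reads in a library.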
